A study of Mus musculus with 13 samples.

Results

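The contractile and actin cytoskeleton genes described here are 33 of the 32285 genes counted in single mammary stromal cells of female mice, and they were chosen by symbol from a fixed list. From textbook knowledge, 10 of them were set apart as restricted to smooth muscle and related contractile cells (Acta2, Actg2, Tagln, Cnn1, Myh11, Mylk, Myl9, Tpm2, Lmod1 and Synpo2), and the other 23 were taken as general actin genes that most cells use. Their levels were followed in fibroblasts, with pericytes, the contractile cells of small vessels, as the contrast. Droplet sequencing of single-cell RNA from its 3′ end gave 13 libraries in 9 groups. Wild-type C57BL/6 females gave 1 library each at puberty (4 weeks of age), as virgin adults (9 weeks), at day 14.5 of pregnancy, at day 10 of lactation and at day 4 of involution, the regression of the gland after weaning. They also gave 2 libraries each after placebo and after MPA+E (the progestin medroxyprogesterone acetate with estrogen), all at 9 weeks. These cells were sorted as Lineage–CD24– stroma from 2 pooled females per condition, and a pair of females stood behind each hormone library in the methods of the study. The hyperplasia and tumor groups held 2 libraries each of GFP+ cells from female raGFP-Wnt1 mice (Pdgfra-GFP KI/+ MMTV-Wnt1 T/+, mixed C57BL/6 and FVB/NJ background). In these mice a mammary tumor virus promoter drives Wnt1 and the Pdgfra reporter marks fibroblasts. Hyperplasia and tumor of the same number came from 1 mouse, at 45 weeks for mouse 1 and 17 weeks for mouse 2. No GFP+ library without the Wnt1 transgene was analysed here, so a difference between raGFP-Wnt1 and normal tissue cannot be told apart from strain, age, reporter and sort.

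Actin monomers (Actb, Actg1 and the muscle forms Acta2 and Actg2) build filaments, and tropomyosins (Tpm1 to Tpm4), calponins (Cnn1 to Cnn3), transgelins (Tagln, Tagln2) and caldesmon (Cald1) coat them. Myosin II heavy chains (Myh9, Myh10, and the smooth muscle form Myh11) with their light chains (Myl6, Myl9, Myl12a, Myl12b) pull on the filaments once myosin light chain kinase (Mylk) has acted, while Actn1, Actn4, Flna, Vcl, Zyx, Pdlim7, Csrp1, Csrp2, Palld, Lmod1 and Synpo2 crosslink, nucleate or anchor them. In the mammary gland, smooth muscle genes are known from vascular smooth muscle and pericytes and from basal myoepithelial cells, which squeeze out milk. Fibroblasts that gain them are called myofibroblasts and are a familiar feature of tumor stroma.

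Many genes of this kind are known targets of serum response factor, which binds the CArG box, 10 bases that open with CC, close with GG and hold 6 bases of A or T between. The promoter windows are shown because several members that are followed below share this box. Of the 33 members, 28 had RefSeq promoters (GRCm38.p6, from 250 bases before to 50 after the start), 34 windows in all. An exact box was found in 5 of the 34 (14.7%), against 1.63% of all 32851 promoters. A box that was exact or held 1 base other than A or T in its core was found in 9 of the 34 (26.5%), against 9.98% of all promoters. The box was searched on both strands, since its reverse complement has the same form. Each line below gives 30 bases on the strand of the gene, 5′ to 3′, with the box in capitals, and the number after the gene is the box's first base relative to the start.
Acta2 -84: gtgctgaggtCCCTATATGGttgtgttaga
Acta2 -34: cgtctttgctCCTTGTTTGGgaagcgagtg
Myl9 -161: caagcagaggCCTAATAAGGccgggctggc
Myl9 -99: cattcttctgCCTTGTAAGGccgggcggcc
Actg1 -90: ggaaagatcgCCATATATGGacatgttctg
Cnn2 -56: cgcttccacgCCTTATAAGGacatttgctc
Myl6 -50: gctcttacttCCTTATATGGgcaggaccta
Vcl -227: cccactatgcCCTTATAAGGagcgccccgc
The boxes of Myl9 (-161), Actg1, Cnn2, Myl6 and Vcl were exact, and those of Acta2 and the box of Myl9 at -99 held 1 other base. The first Acta2 box lies at chr19:34255448-34255457 on the minus strand, the exact Myl9 box at chr2:156775303-156775312 on the plus strand and the Cnn2 box at chr10:79988544-79988553 on the plus strand. In GENCODE M21 the boxes of Myl9, Actg1, Cnn2 and Vcl lie outside the gene, upstream of its start. The Acta2 boxes lie upstream of the RefSeq start but inside exon 1 of a GENCODE transcript that starts farther upstream, and the Myl6 box also lies inside an exon 1 there. Myl12a and Tpm3 made up the rest of the 9 windows. A match describes the sequence, and binding was not measured.

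Between 5230 and 14424 barcodes and between 56551189 and 112550204 UMIs (molecules counted once) were found per library. A fibroblast barcode had 500 to 7500 genes, at most 10% mitochondrial UMIs, at least 50 UMIs of Dcn, Lum and Col1a2 per 10000, and no UMI of Epcam, Pecam1, Rgs5, Sox10, Ptprc or Myog. This gate took 100523 of 120355 barcodes, with a median of 3990 UMIs per fibroblast in pregnancy and 20260 in tumor 2 as the extremes, and all 5 fibroblast markers were detected in each library. A pericyte barcode had at least 3 Rgs5 UMIs, few UMIs of the fibroblast genes and none of the other lineages. This gate took 24 to 182 barcodes per wild-type library and 1 to 6 per raGFP-Wnt1 library. Rgs5 also marks vascular smooth muscle cells, so the pericyte gate does not part the 2 types. Counts were summed per library and are given as CPM, the usual scaling of counts to a fixed total, here of the summed gate. Fewer expressing cells and less RNA per cell cannot be told apart in such sums. Any pair of libraries shared 5 to 51 cell barcodes. Actb, Actg1, Acta2 and Actg2, and Myl12a and Myl12b, have near-identical coding sequences, and a read from there may be misassigned. Hyperplasia 1 had 43 Acta2 UMIs and 1 Actg2 UMI beside 137297 of Actb and 74833 of Actg1, so few reads of the cytoplasmic actins were counted as muscle actins. For Myl12a and Myl12b the split stays uncertain.

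Smooth-muscle-restricted genes separated pericytes from fibroblasts by far more than the general genes did. Over the 8 wild-type libraries with at least 55 pericyte barcodes, 22 of 32 tested members were higher in pericytes and 5 were lower (edgeR quasi-likelihood test with the library as a block, adjusted p under 0.05), against 18.6% and 30.2% of all 13213 genes tested. All 9 tested restricted members were higher, and Actg2 was too rare to test. Of the 23 general members, 13 were higher and 5 lower. The median log2 fold change of the members was 1.97, against -0.15 over all genes tested.

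Acta2, smooth muscle alpha-actin, stood in the pericyte gate at 7382 CPM in puberty, 3661 in pregnancy, 1112 in lactation, 561 in involution, 5975 and 5800 with placebo, and 4346 and 3490 with MPA+E. In fibroblasts of the same libraries it stood at 45.7, 219, 2.03, 2.45, 25.7 and 43.0, and 25.7 and 49.0 CPM, in the same order. No fibroblast value reached the lowest pericyte value, and the log2 fold change was 6.86 (SE 0.45, adjusted p = 8.87e-10). Lmod1, a leiomodin that nucleates filaments in smooth muscle, had the largest change, at 7.58 (SE 0.38). Myh11 differed by 7.13 (SE 0.49), Tagln by 6.73 (SE 0.34), Mylk by 5.70 (SE 0.35) and Synpo2 by 5.41 (SE 0.16). Among the general genes the crosslinker Actn1 rose by 3.74 (SE 0.26) and Tpm1 by 3.73 (SE 0.24).

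Nonmuscle myosin heavy chains parted in opposite directions. Myh10 was at 2.35 to 17.9 CPM in the pericyte gate and at 48.8 to 82.2 CPM in fibroblasts of the same 8 libraries, without overlap (log2 fold change -3.60, SE 0.30, adjusted p = 1.84e-08). Myh9 was higher in pericytes by 1.54 (SE 0.18, adjusted p = 1.75e-06). The other members that fell in pericytes were the focal adhesion protein Zyx (-1.48), the light chain Myl12b (-0.89), cytoplasmic gamma-actin Actg1 (-0.79) and Csrp2 (-0.66). Tpm3, Myl12a, Cnn3, Pdlim7 and Palld did not pass the test. With a gate of at least 10 Rgs5 UMIs, Cnn1, Actb and Tagln2 no longer passed, and Tagln2 was lost in 7 of the 8 fits that left out a library.

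**Figure D1:**
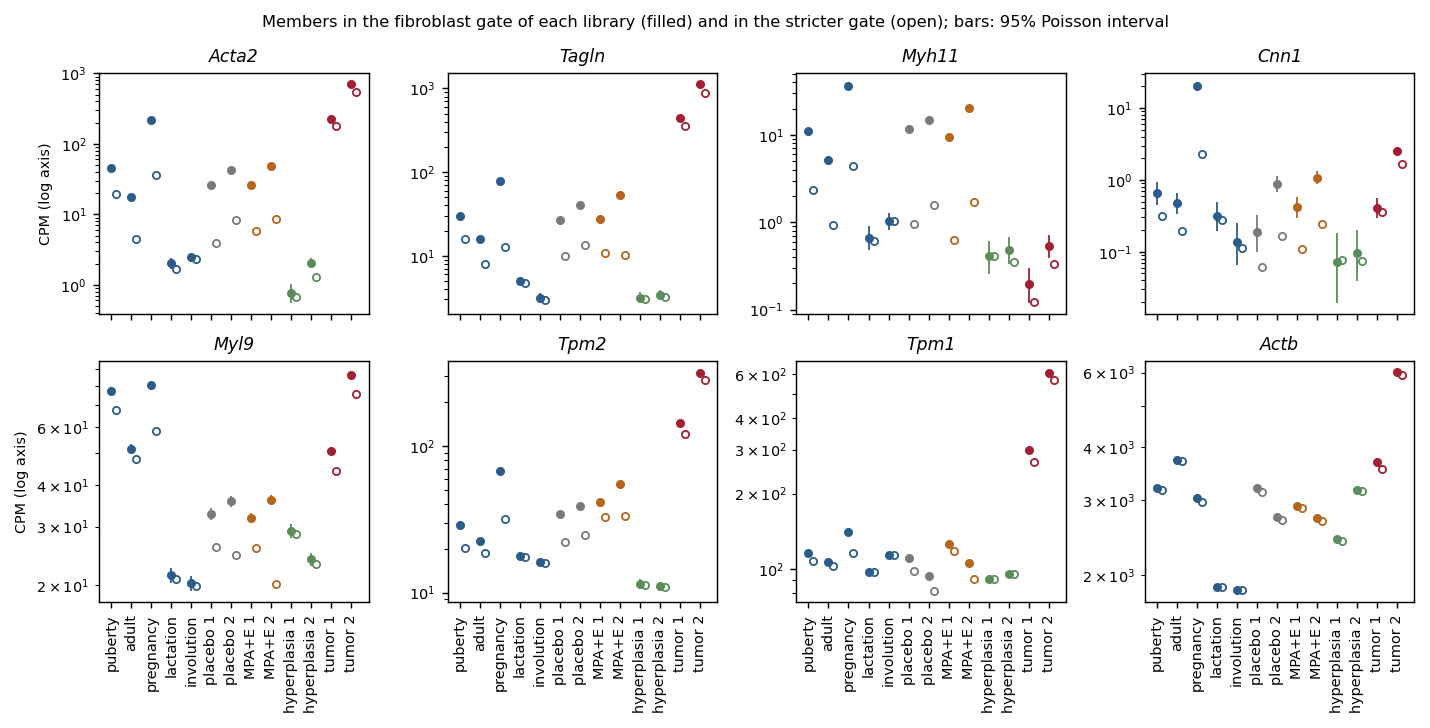
CPM (log axis) of 8 members in the fibroblast gate of each of the 13 libraries, as filled points with a 95% Poisson interval, and in the stricter gate described in the text, as open points. Acta2 and Tagln reach their highest values in the tumor libraries (228 and 698 CPM for Acta2), and the open points of Acta2 lie far below the filled ones in pregnancy (35.9 against 219 CPM) but close to them in lactation and involution.

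In wild-type fibroblasts most Acta2 UMIs sat in few barcodes. In puberty 2228 UMIs lay in 360 of 7121 fibroblast barcodes, and in pregnancy 10425 lay in 1221 of 11501. Barcodes with a single Acta2 UMI held 6.85% to 14.2% of the UMIs in the puberty, adult, pregnancy, placebo and MPA+E libraries, where the highest barcode of a library held 120 to 215. In lactation and involution, with 128 and 182 UMIs in all, these barcodes held 60.2% and 49.5%. Myl9 and Tpm2 were less concentrated than Acta2, as the 5% of barcodes with the most UMIs held 40.3% to 69.4% of Myl9 and 56.4% to 80.6% of Tpm2, against 13.7% to 17.6% of beta-actin, Actb. For Tagln these barcodes held 94.8% to 97.3% in the placebo and MPA+E libraries. Tagln in the stage libraries, and Myh11, Cnn1, Lmod1 and Actg2, had too few positive barcodes for this measure. After each cell was thinned to 2000 UMIs, 2.04% of 69845 wild-type fibroblasts had an Acta2 UMI (exact 95% interval 1.93% to 2.14%; 4.68% before thinning). The same share was 2.25% of 178 endothelial barcodes (0.616% to 5.65%), a type that should lack the gene. For Tagln, transgelin, it was 1.78% of fibroblasts and 6.74% of endothelial barcodes. In 60 barcodes of Schwann cells, from the nerve sheath, it was 1.67% for Acta2 (0.0422% to 8.94%) and 26.7% for Tagln. Before thinning, the 80 endothelial Acta2 UMIs lay in 5 of 292 barcodes. Whether the shares in these gates measure free RNA was not tested. The pooled shares in wild-type fibroblasts were thus not above those in the few endothelial barcodes, and a share at that level was not read as expression in most fibroblasts. Among single wild-type libraries, pregnancy had the highest thinned share of Acta2, at 6.54% (6.07% to 7.04%), and the others ran from 0.280% to 2.60%. The endothelial gate held 15 barcodes in pregnancy and 126 in involution, so the pooled interval gives no background for the pregnancy library. The source of the barcodes with many Acta2 UMIs was not tested. In the pericyte gate 77.9% of 765 barcodes had an Acta2 UMI.

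A stricter fibroblast gate, which also asked for no UMI of 8 markers of other cell types, among them Krt14, Krt5, Notch3, Mcam, Cdh5, Des and Acta1, measured how far these rare barcodes carried the sums. It removed 2.65% to 6.57% of barcodes in the wild-type libraries. In pregnancy it kept 15.3% of the Acta2 UMIs, and in puberty, adult, placebo and MPA+E 14.1% to 38.8%. In lactation and involution, where Acta2 was low, it kept 78.9% and 92.3%. Myh11, the smooth muscle myosin heavy chain, kept 11.3% of its UMIs in pregnancy. Thus most of the Acta2 signal of wild-type fibroblasts outside lactation and involution lay in barcodes that also held a UMI of these 8 genes. Des is itself among the smooth muscle genes followed below, so a fibroblast with contractile genes could be removed too. The gate therefore does not tell which cell type gave the signal.

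Pregnancy had the highest fibroblast level of Acta2, Myh11, Tagln, Mylk, Tpm2 and Myl9 among the 5 stages, but for Tagln, Mylk and Myl9 the highest stage depended on the gate. Lactation and involution had the lowest levels of these genes except Mylk. Each stage is 1 library, so these are descriptions with counting intervals and no test. A ratio of the highest to the lowest stage of at least 2-fold was found in 13 of the 29 members with a mean of at least 5 CPM, against 17.9% of 9566 genes at that level. Actg2, Cnn1, Lmod1 and Synpo2 were below it. Myh11 reached the mean of 5 CPM only through pregnancy, so its place among the 13 rested on that library. It was below that mean without pregnancy, in the stricter gate and with likely doublets removed. Acta2 ran from 219 CPM in pregnancy to 2.03 in lactation, a ratio of 108 (90.7 to 130), with 45.7 in puberty, 17.8 in the adult and 2.45 in involution. Myh11 was at 11.1, 5.16, 36.2, 0.667 and 1.02 CPM in puberty, adult, pregnancy, lactation and involution, a ratio of 54.3. Tagln was at 30.2, 16.0, 77.3, 4.98 and 3.14 CPM, a ratio of 24.6.

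The kinase Mylk (ratio 5.18), the tropomyosin Tpm2 (4.19) and the light chain Myl9 (3.98) followed with smaller ranges. Mylk was at 12.1, 7.90, 40.9, 9.17 and 19.2 CPM from puberty to involution, so the adult was lowest and involution second. Tpm2 was at 29.1, 22.5, 67.5, 17.8 and 16.1 CPM in the same order of stages, and Myl9 at 76.8, 51.6, 80.3, 21.3 and 20.2. Myl9 was therefore nearly as high in puberty as in pregnancy, whereas Tpm2 was not. Cnn1, the smooth muscle calponin, was below 1 CPM in each wild-type library but pregnancy (20.2 CPM) and MPA+E 2 (1.07 CPM).

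Markers of basal myoepithelial cells moved with the pregnancy values. The 6 basal markers were all detected in the pregnancy fibroblasts, with a summed level of 41.8 CPM, against 1.64 to 4.58 CPM in the other wild-type libraries, where puberty had Krt14 at 0. Krt14 alone stood at 22.4 CPM in pregnancy and at 0 to 1.11 CPM in the other wild-type libraries. The pregnancy library also held 504 barcodes that passed a basal gate, with Acta2 at 20169 CPM and Krt14 at 3384 CPM. Fibroblasts carried 1.09% of the basal level of Acta2, 1.15% of that of Tagln and 0.662% of that of Krt14. With the stricter gate, Acta2 was at 35.9 CPM in pregnancy, 19.1 in puberty, 4.44 in the adult, 1.65 in lactation and 2.34 in involution. For Acta2 the highest and lowest stages were thus kept at a ratio of 21.8, and for Tpm2 at 2.00. Myh11 was at 2.32, 0.939, 4.41, 0.604 and 1.03 CPM in that gate. The highest stage of Tagln moved to puberty (15.8 CPM, against 12.7 in pregnancy), that of Mylk to involution (18.9 against 15.5) and that of Myl9 to puberty (67.8 against 58.6). With likely doublets removed, Mylk was again highest in involution and Myl9 in puberty, and the Acta2 ratio was 26.2 with pregnancy highest. Myl9 was also highest in puberty with DESeq2 size factors and with at least 100 UMIs of the fibroblast genes per 10000. A setting without the pregnancy library was chosen after the data were seen. The ratio was then 22.5 for Acta2, 9.62 for Tagln, 3.81 for Myl9 and 2.43 for Mylk. Tpm2 fell to 1.81, and Myh11 was below the mean of 5 CPM and was not rated.

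General members moved less between stages and had no shared peak. The lowest stage was lactation for 5 and involution for 10 of the 23 general members, and 1 of these stages was lowest for 45.0% of all 9566 genes. Csrp2, a LIM-domain actin-binding protein, was at 690.1, 548, 505, 207 and 293 CPM from puberty to involution in the order of the stages (ratio 3.33). Csrp1 had a ratio of 2.93 with its peak in pregnancy, and Actg1 (2.36), Tagln2 (2.20), Cnn2 (2.13) and Actb (2.03) had theirs in the adult. Actb was at 3203, 3735, 3033, 1875 and 1843 CPM, so its values in lactation and involution lay below all others. Myh9 ran the other way, with 176 CPM in involution and 71.1 in puberty (ratio 2.47). Tpm1, at 116, 107, 140.3, 97.4 and 114 CPM, stayed within a ratio of 1.44. As a measure of spread between libraries, no member of the 29 differed 2-fold between the 2 placebo libraries, where the largest ratio was 1.67, and 0.499% of 9422 genes did. The placebo pair is a low measure of this spread. Against counting noise, the chi-square per gene was 72.4 for placebo and 147 for MPA+E. Acta2 differed more between the 2 MPA+E libraries than between the placebo ones. The adult library lay below both placebo libraries of the same age for Acta2. For Mylk the adult was at 7.90 CPM and placebo 2 at 15.3.

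**Figure D2:**
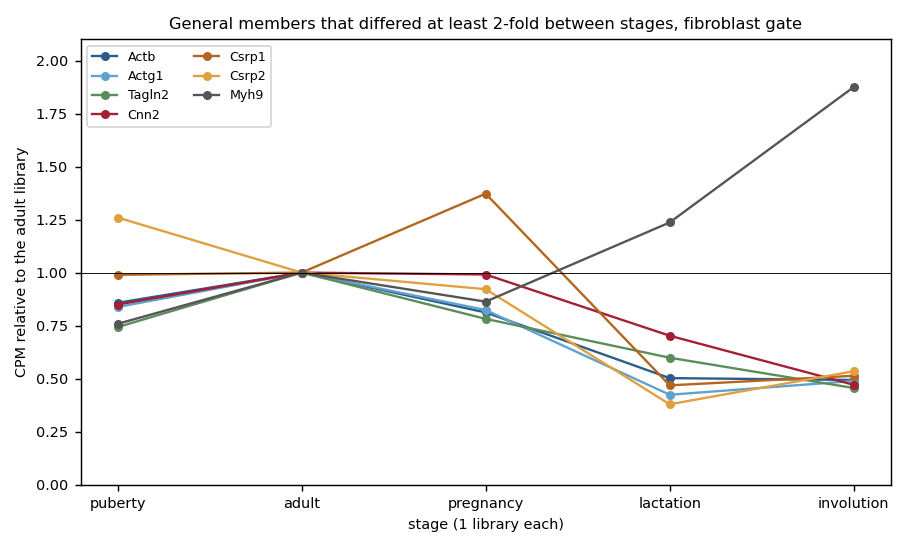
CPM relative to the adult library (linear axis) of the general members that differed at least 2-fold between stages, over puberty, adult, pregnancy, lactation and involution with 1 library each. Most lines fall in lactation and involution, while Myh9 rises to its highest value in involution (176 against 93.8 CPM in the adult).

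In the pericyte gate, too, lactation and involution were low for many members. Among 30 members with a mean of at least 50 CPM there, 14 were lower in both lactation and involution than in each of the other 6 libraries, against 14.9% of 3104 genes at that level. These were 5 of 8 restricted and 9 of 22 general members, under a criterion chosen after the values were seen. Tagln stood at 1024 and 561 CPM in lactation and involution and at 2232 to 6535 in the other 6. Tpm1 stood at 949 and 947 CPM, against 1685 to 2802. Myh11, with 626 and 559 CPM, had a smaller gap to the pregnancy library, at 736. Myh9 was again different, with its highest value, 877 CPM, in lactation.

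Pericyte markers changed between these libraries as well. Notch3 stayed at 496 to 902 CPM, but Abcc9, a channel subunit of pericytes, was at 2036 and 1322 CPM in lactation and involution and at 31.6 to 513 in the others. Rgs5, the gene of the gate, was at 8886 and 6409 CPM against 1949 to 4262, and Kcnj8 at 946 and 360 against 20.6 to 311. These 3 of the 8 markers were higher in both libraries than in each of the others. Higd1b, at 439 and 262 CPM, lay within the range of the others (122 to 862). Cspg4 (423 and 138) and Mcam (589 and 132) were highest in lactation but within that range in involution, and Ndufa4l2 was within it in lactation (1021) and lowest in involution (553). Of the 5 fibroblast markers in this gate, Dcn was at 244 and 265 CPM against 34.3 to 172 and Lum at 90.8 and 83.5 against 10.1 to 29.4, while Col1a1, Col1a2 and Pdgfra overlapped. The part of fibroblast RNA and of a shift between pericytes and vascular smooth muscle in the members' values was not tested.

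**Figure D3:**
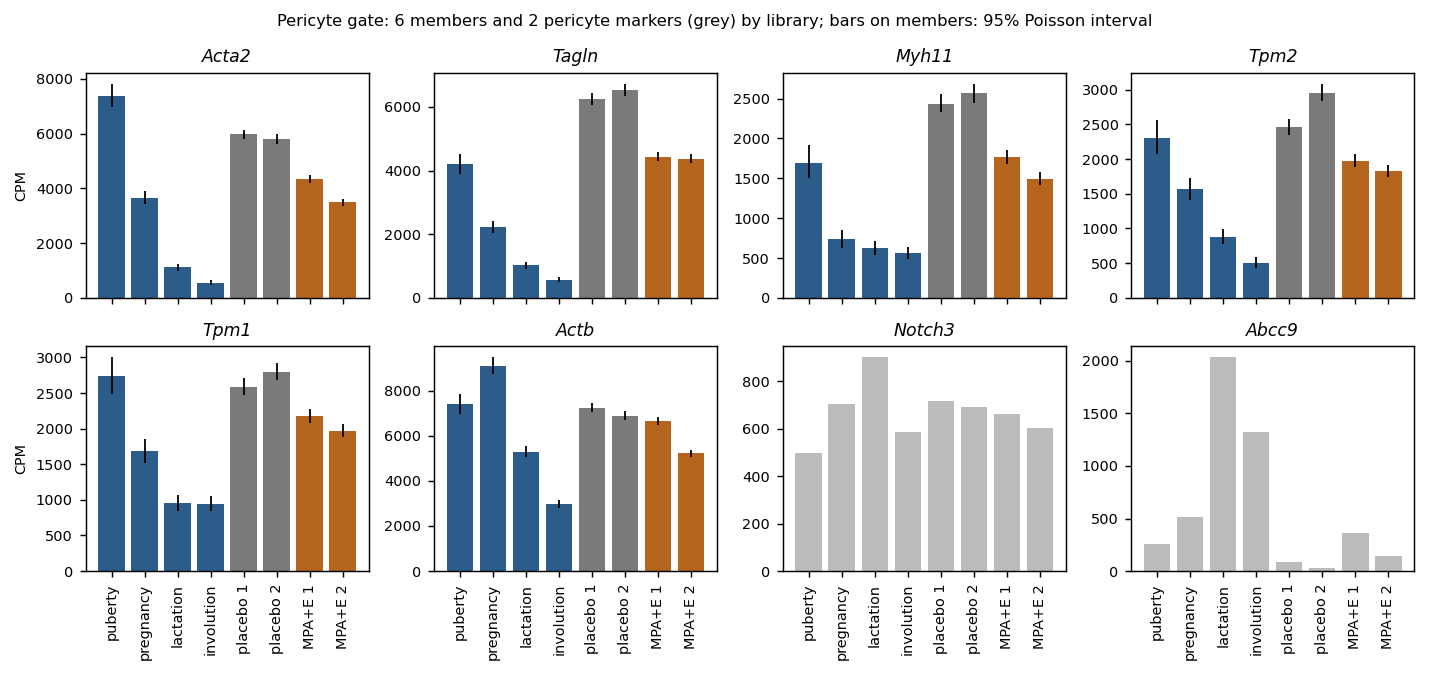
CPM (linear axis) in the pericyte gate of 8 wild-type libraries for 6 members, with 95% Poisson intervals, and for the markers Notch3 and Abcc9 in grey. The members other than Actb are lower in lactation and involution than in the other libraries (Acta2 at 1112 and 561 CPM). The placebo libraries lie above the MPA+E libraries for Acta2, Tagln and Tpm2.

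In fibroblasts Myh10 was lower under MPA+E, and no other member passed the test. Of the 33 tested, 1 was lower and 0 higher (edgeR quasi-likelihood test, adjusted p under 0.05), against 1.64% and 2.69% of 15642 genes. At an unadjusted p under 0.05 there were 8, against 18.5% of all genes, and DESeq2 called 2 members. With the replicate number as a block, 9 members and 2451 genes passed, but the labels do not say whether these numbers mark a shared batch. Both MPA+E libraries lay below both placebo libraries for 11 members, against 22.4% of genes, and above for 6, against 21.2%. A call that misses the threshold at 2 libraries per arm does not show that a member was unchanged. Myh10 was at 82.2 and 75.1 CPM in the placebo libraries against 51.6 and 48.8 in the MPA+E libraries, and the groups did not overlap (log2 fold change -0.64, SE 0.08, adjusted p = 0.0252). Without placebo 1 or placebo 2 this call was lost, with estimates of -0.64 to -0.63 over the fits that left out a library. Acta2 was at 25.7 and 43.0 CPM with placebo against 25.7 and 49.0 with MPA+E, and these overlapped (0.13, SE 0.43). Csrp2 was at 360.2 and 453 CPM with placebo against 218 and 268 with MPA+E, but did not pass the test (-0.73, SE 0.22, adjusted p = 0.157).

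In pericytes most restricted genes had lower levels under MPA+E, and for 6 of them this change differed from that in fibroblasts. In the pericyte gate both MPA+E libraries were below both placebo libraries for 19 of 30 members, among them 7 of 8 restricted members, against 21.2% of 2864 genes, and both were above for 2. The difference between the responses (interaction of gate and treatment, edgeR, library as a block) passed the test for 8 of 33 members, all toward lower values in pericytes, and for 0 toward higher ones, against 0.864% and 1.66% of 14932 genes. These were Lmod1 (-0.96, SE 0.24), Csrp1 (-0.95, SE 0.21), Tpm2 (-0.95, SE 0.21), Mylk (-0.95, SE 0.21), Palld (-0.93, SE 0.21), Tagln (-0.81, SE 0.20), Myh11 (-0.77, SE 0.21) and Acta2 (-0.76, SE 0.21).

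The levels in every library show both sides of this. Tpm2 was at 2458 and 2954 CPM in pericytes with placebo against 1977 and 1825 with MPA+E, while fibroblasts had 34.4 and 38.9, then 41.3 and 54.9. Mylk was at 1655 and 1798 CPM, then 1140 and 1185, in pericytes, and at 12.4 and 15.3, then 12.5 and 23.3, in fibroblasts. Csrp1 was at 618 and 505 CPM, then 366 and 337, in pericytes, and at 47.7 and 42.0, then 52.5 and 51.5, in fibroblasts. In pericytes the groups did not overlap for any of these 3 genes. On the fibroblast side, the stricter gate kept 14.1% to 21.1% of the Acta2 UMIs, 18.4% to 36.9% of Tagln, 6.15% to 9.98% of Myh11 and 6.60% to 13.3% of Lmod1 in these 4 libraries. With the fibroblast side taken from that gate, an alternative chosen after the data were seen, 6 of the 8 members passed (edgeR interaction). Tagln (-0.46, adjusted p = 0.345) and Myh11 (-0.51, adjusted p = 0.485) did not, and Acta2 did (-0.95, adjusted p = 0.000499). The calls rested on few libraries: no member of the 8 kept its call in every fit that left out 1 library. Lmod1 turned to 0.10 without MPA+E 2. The sizes moved too, with a range over these fits of -1.33 to -0.19 for Acta2, -1.39 to -0.15 for Myh11, -1.24 to -0.39 for Tagln and -1.32 to -0.58 for Mylk. Markers of the gate moved with treatment. Of the 8 pericyte markers, all detected in these 4 libraries, 4 were higher in both MPA+E libraries than in both placebo libraries and 2 were lower, Notch3 and Mcam. Rgs5 itself was at 1997 and 1949 CPM with placebo against 3377 and 2650 with MPA+E. Abcc9 was at 87.4 and 31.6, then 366 and 143 CPM, Kcnj8 at 61.9 and 20.6, then 273 and 106, and Higd1b at 122 and 146, then 312 and 244. The other 7 markers without Rgs5 summed to 2112 and 2018 CPM with placebo and 2816 and 2028 with MPA+E. Of the 5 fibroblast markers in this gate, Col1a2 was at 229 and 125, then 459 and 388 CPM, and Col1a1 at 121 and 60.4, then 252 and 205. Lum was lower with MPA+E, at 13.5 and 12.4, then 10.1 and 11.7, and Dcn and Pdgfra overlapped. The part of the mix of pericytes, vascular smooth muscle and fibroblast RNA in the members' values was not tested. With at least 10 Rgs5 UMIs, 6 of the 8 held, and Lmod1 (adjusted p = 0.0634) and Palld (adjusted p = 0.0539) did not.

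**Figure D4:**
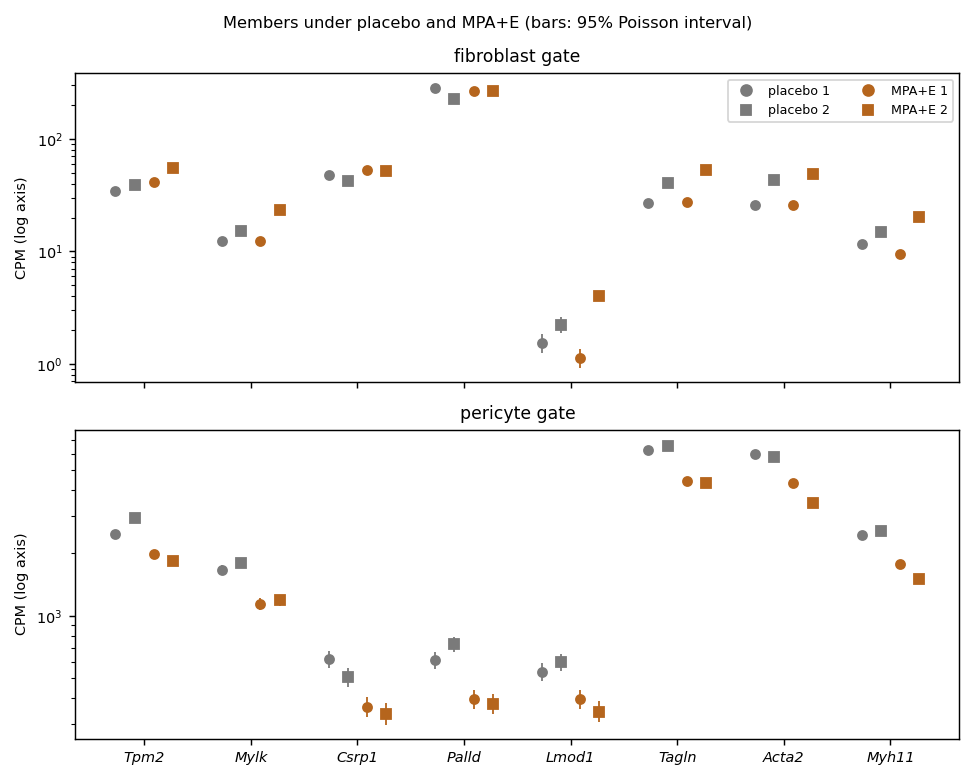
CPM (log axis) of the 8 members with a different response in the 2 gates, in the placebo and MPA+E libraries, for fibroblasts and for pericytes in separate panels with 95% Poisson intervals. In pericytes both MPA+E points lie below both placebo points (Tagln at 4435 and 4368 against 6249 and 6535 CPM), and in fibroblasts they overlap or lie above.

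Tumor fibroblasts had far more Acta2 and Tagln than the hyperplastic gland of the same mouse, and most general members rose as well. Of the 33 members, 23 were higher in tumor than in hyperplasia and 0 lower (limma-voom, 1 fit of 6 libraries, adjusted p under 0.05), against 15.4% and 13.9% of 16302 genes tested. The called members were 6 of 10 restricted and 17 of 23 general ones. The median log2 fold change was 1.27 over the members and -0.01 over all genes tested. With the mouse as a block, on the 4 raGFP-Wnt1 libraries, 25 members passed and Lmod1 did not (adjusted p = 0.0558).

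Acta2 was at 0.761 and 2.07 CPM in hyperplasia 1 and 2 and at 228 and 698 CPM in tumor 1 and 2. These levels rest on 43 and 150 UMIs in hyperplasia and 23373 and 61231 in tumor. The ratio within a mouse was 299.5 (222 to 414, counting error) in mouse 1 and 337 (287 to 398) in mouse 2, and the log2 fold change was 8.25 (SE 0.98, adjusted p = 0.006). Tagln was at 3.17 and 3.44 CPM, then 448 and 1117, with a log2 fold change of 7.74 (SE 0.57, adjusted p = 0.00208). Tpm2, a muscle-type tropomyosin, was at 11.5 and 11, then 144 and 316 CPM (4.25, SE 0.36, adjusted p = 0.0026). For all 3 genes the groups were apart, and tumor 2 had the higher level.

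Among the general genes, Actn1, alpha-actinin, was at 13.9 and 15.7 CPM in hyperplasia and 108 and 186 in tumor (3.27, SE 0.25, adjusted p = 0.00227). Cnn2, the calponin of nonmuscle cells, whose exact CArG box is printed above, was at 13.9 and 19.1, then 108 and 192 CPM (3.14, SE 0.29, adjusted p = 0.00331). Tpm1 was at 91.2 and 95.8, then 299 and 608 CPM, and Myh9 at 85.8 and 93.7, then 303 and 431. The remaining general members that passed rose by 0.65 (Myh10) to 1.69 (Cald1). Actb, at 2430 and 3172, then 3698 and 6006 CPM, did not pass (0.77, SE 0.26, adjusted p = 0.0655).

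Not all of the restricted members rose. Myh11 was at 0.407 and 0.483 CPM in hyperplasia and 0.195 and 0.535 in tumor (-0.49, SE 0.88, adjusted p = 0.691). Synpo2, a partner of actinin and filamin, was at 6.64 and 6.41 CPM, then 4.88 and 4.59 (-0.46, SE 0.29, adjusted p = 0.255), and was the 1 member below hyperplasia in both mice. Lmod1 passed (2.46, SE 0.70, adjusted p = 0.0414) on 2 and 10 UMIs in hyperplasia and 46 and 40 in tumor. Cnn1 stood at 0.0708 and 0.0966, then 0.41 and 2.52 CPM, and did not pass (adjusted p = 0.0845). Actg2 had 1 and 0 UMIs in hyperplasia and 162 and 909 in tumor, and did not pass (adjusted p = 0.0523). Its ratio was 89.3 (15.8 to 3548) in mouse 1 and at least 250-fold higher in mouse 2, against a floor of 3 counts in that library.

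Both mice moved the same way for most members. The ratio of tumor to hyperplasia was above 1 in both mice for 29 of 33 members, below 1 in both for 1, and mixed for 3, against 41.1% of 16302 genes above in both. Actg2 is among the 29, although it passed the filter on low counts only through the tumors. Mylk had ratios of 3.80 and 3.39. The calls leaned on the hyperplasia libraries: each call that was lost with a library left out was lost without hyperplasia 1 and also without hyperplasia 2. Over these fits the change ran from 7.47 to 9.03 for Acta2 and from 7.11 to 8.37 for Tagln. Actn1, Cnn2, Myh9, Tagln and Tpm2 passed in each of the 6 fits that left out a library, and Lmod1, Tagln2 and Vcl in 1 of 6. The direction of all 23 was the same in all of these fits. The stricter gate kept 69.0% and 59.4% of the Acta2 UMIs in tumor 1 and 2, and left Acta2 at 179 and 549 CPM there. The same 7 of 8 pericyte markers were detected in tumor fibroblasts, with sums of 134 and 130.4 CPM against 88.8 and 84.8 in hyperplasia, and the basal markers summed to 2.06 and 1.22 CPM against 2.97 and 3.52. Their part in the result was not tested.

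**Figure D5:**
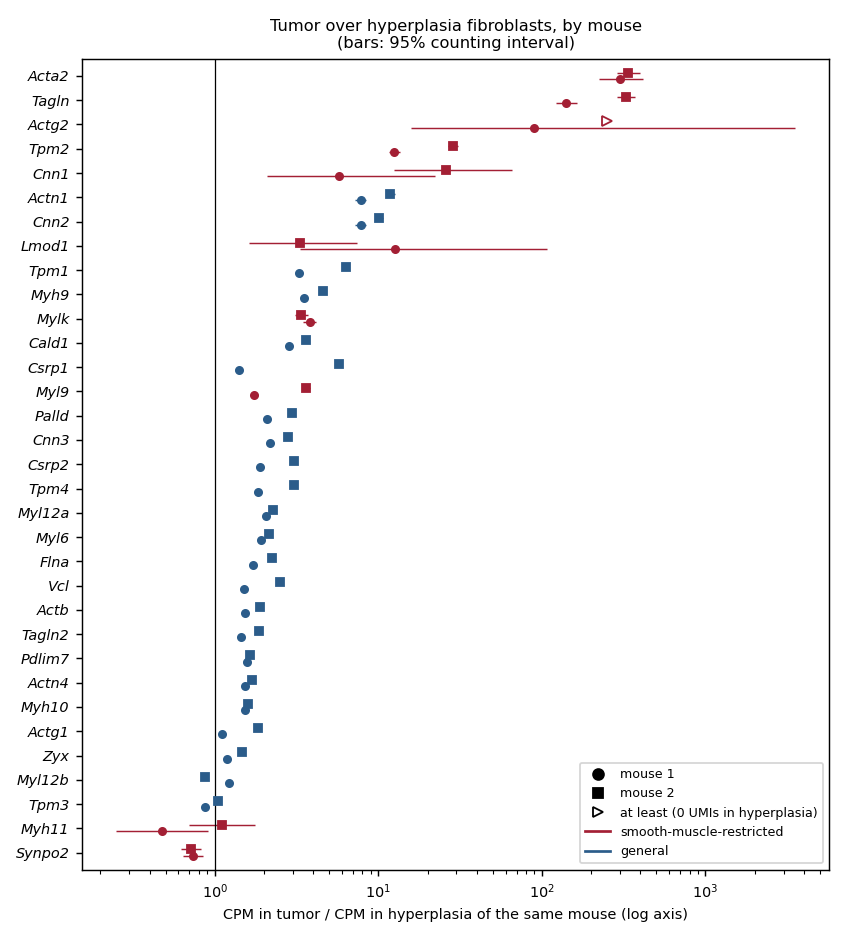
Ratio of CPM in tumor to CPM in hyperplasia of the same mouse (log axis) for the members, with 1 point per mouse and a 95% counting interval. Acta2 lies at 299.5 and 337 and Tagln at 141 and 325, the open triangle of Actg2 in mouse 2 is a lower bound of 250, the line at 1 is crossed by few members, and Synpo2 is below 1 in both mice.

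Against normal tissue (puberty and adult joined), hyperplasia was lower for 8 members and higher for 0, against 6.29% and 7.7% of 16302 genes. The members called were the restricted Acta2 (-4.46, SE 0.95), Myh11 (-4.02, SE 0.69), Lmod1 (-3.74, SE 0.68), Tagln (-2.75, SE 0.55) and Myl9 (-1.30, SE 0.30) and the general Csrp2 (-1.26, SE 0.22), Pdlim7 and Zyx. Pericyte barcodes moved with this comparison, since the pericyte gate held 55 and 24 in puberty and adult and 1 each in hyperplasia. Within the fibroblast gate, 7 of the 8 pericyte markers were detected in these 4 libraries (Rgs5 at 0 by the gate), with sums of 73.8 and 37.4 CPM in normal tissue and 88.8 and 84.8 in hyperplasia. With the stricter fibroblast gate 4 members passed, and Acta2 (-3.20, adjusted p = 0.107), Myh11 (-1.87, adjusted p = 0.0919), Lmod1 (-2.67, adjusted p = 0.0526) and Tagln (-1.84, adjusted p = 0.0737) did not. Without puberty or either hyperplasia library 0 passed (limma-voom; all 6 libraries gave 14 members at an unadjusted p under 0.05, against 35% of all genes), and without adult 1 passed. Myl9 was at 76.8 and 51.6 CPM in normal tissue and 29.0 and 23.9 in hyperplasia, without overlap. The placebo glands had Myl9 at 32.8 and 35.7 CPM, and with these libraries added to normal tissue Myl9 (-0.85, adjusted p = 0.192), Zyx (-0.67, adjusted p = 0.062), Pdlim7 (-0.57, adjusted p = 0.16) and Csrp2 (-0.95, adjusted p = 0.0834) did not pass. Each of the 8 calls was therefore lost either with the stricter gate or with placebo added.

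Tumor was higher than normal tissue for 15 members and lower for 1, against 12.7% and 10.1% of genes. Tagln rose by 4.99 (SE 0.46), Actn1 by 4.03 (SE 0.27), Acta2 by 3.79 (SE 0.64), Tpm2 by 3.03 (SE 0.34), Cnn2 by 2.50 (SE 0.28) and Myh9 by 2.12 (SE 0.21). Myh11 was the member that fell, from 11.1 and 5.16 CPM in puberty and adult to 0.195 and 0.535 in the tumors (-4.51, SE 0.68, adjusted p = 0.0079). It fell by less with the stricter gate (-2.82, adjusted p = 0.0329) and did not pass with at least 100 UMIs of the fibroblast genes per 10000 (-3.35, adjusted p = 0.145). Tumor and hyperplasia share the normal libraries in these comparisons. The Acta2 call was lost without the adult library, and its change ran from 3.01 to 4.57 over the fits that left out a library. The calls of Actn4, Cald1, Myl12a, Palld, Tpm1 and Vcl were lost without puberty and also without adult, and that of Myh10 was lost in each of these fits.

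Within tumors an Acta2 or Tagln UMI was found in many fibroblast barcodes, whereas Myh11 had 20 and 47 UMIs in all. The endothelial gate held 1 and 0 barcodes in tumor 1 and 2, so these shares have no background from the same libraries, and how much of them free RNA gives was not tested. After thinning to 2000 UMIs, an Acta2 UMI was found in 14.5% of tumor 1 fibroblasts (13.7% to 15.2%) and 37.2% of tumor 2 fibroblasts (35.7% to 38.7%), against 0.0839% and 0.220% in hyperplasia 1 and 2. Before thinning these shares were 28.5% and 65.4% in tumor and 0.381% and 1.01% in hyperplasia, and thinning left out 232, 164, 86 and 247 shallower cells. For Tagln the thinned shares were 21.8% and 43.4% in tumor and 0.537% and 0.452% in hyperplasia. The 5% of barcodes with the most UMIs held 64.9% and 42.9% of the Acta2 UMIs of tumor 1 and 2, at median depths of 10824 and 20256 UMIs.

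Cells with an Lrrc15 UMI, a marker of myofibroblastic fibroblasts, had more Acta2 and Tagln in both tumors. Acta2 was at 361 CPM in Lrrc15 cells and 18.5 in the other fibroblasts of tumor 1, and at 766 and 255 in tumor 2. In hyperplasia it was at 0.618 and 0.774 CPM in mouse 1 and at 4.2 and 1.94 in mouse 2. Tagln was at 708 against 38.3 CPM in tumor 1 and 1234 against 356 in tumor 2. Tpm2 was at 219 against 25.6, and 344 against 129. Zyx, at 105 against 172 CPM and 181 against 179, did not share this order. Tagln2 was lower in Lrrc15 cells in both tumors, at 289 against 320 CPM and 426 against 486. Myl12b, Synpo2 and Lmod1 were lower in Lrrc15 cells of tumor 2 but not of tumor 1.

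Over the 4 raGFP-Wnt1 libraries 0 of 30 tested members passed between Lrrc15 cells and the rest (edgeR, library as a block), against 0.109% of 14746 genes higher and 0.197% lower. At an unadjusted p under 0.05 there were 20 members, against 16.3% of all genes, and edgeR with DESeq2 size factors also called 0. The estimate for Acta2 was 2.30 (SE 0.65, adjusted p = 0.175) and for Tagln 1.95 (SE 0.71, adjusted p = 0.259), and the median over the members was 0.50, against 0.01 over all genes. Depth moved with the gate, since Lrrc15 cells had a median of 12972 and 21783 UMIs in the tumors and the others 8637.5 and 12940, and its part was not tested. The fit took the same change for hyperplasia and tumor libraries, so a change in the tumors alone was not tested. The Lrrc15 gate took 4513 of 8917 fibroblasts in tumor 1 and 3373 of 4236 in tumor 2.

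In wild-type glands the members also differed between 2 fibroblast states that were gated without them. Lobular-type cells (Thbs4, Cilp, Bmp5) were compared with progenitor-type cells (Pi16, Dpp4, Cd55) within 9 libraries. The lobular gate had its largest share of wild-type fibroblasts in involution, 2192 of 9863, and also took 2425 of 8917 in tumor 1. The study reported its lobular-like cluster as less abundant in lactation and involution and not present in tumors. The gate is therefore named by its markers and need not match that cluster. Of 31 tested members 18 were higher and 4 lower in lobular-type cells (edgeR, library as a block), against 25% and 25% of 13076 genes. The median log2 fold change was 0.25, against -0.01. Actn1 led, at 3 to 11.8 CPM (median 4.58) in progenitor-type and 11.8 to 36.5 CPM (median 22.8) in lobular-type cells (2.02, SE 0.15, adjusted p = 4.89e-07). Mylk was at 2.74 to 28.7 CPM and 12.6 to 42.0 CPM (1.63, SE 0.29, adjusted p = 0.000473), and its ranges overlapped between libraries. Synpo2 (1.02), the palladin gene Palld (0.83), Tagln (0.61) and Tpm3 (0.58) were higher as well.

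The members that were lower in lobular-type cells were Zyx (-0.94, SE 0.10), Csrp2 (-0.73, SE 0.12), Myh10 (-0.61, SE 0.07) and Cnn2 (-0.48, SE 0.08). Zyx was at 161 to 271 CPM (median 211) in progenitor-type and 59.2 to 164 CPM (median 105) in lobular-type cells. Acta2 (0.17, SE 0.28), Myh11 (0.00, SE 0.33) and Lmod1 (0.11, SE 0.37) did not pass. Apart from Tpm2, which was lost without the adult library and without MPA+E 2, all of these calls were kept when any 1 library was left out.

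Genes around the contractile machinery, taken from fixed lists, were called in both directions in tumors. Of 20 regulators, 5 were higher and 4 lower in tumor than in hyperplasia, against 15.4% and 13.9% of all genes. Fhl2, a LIM-domain cofactor, was at 11.6 and 11 CPM in hyperplasia and 61.6 and 117 in tumor (2.92, SE 0.29). Myocd, the coactivator of serum response factor in smooth muscle, had 0 UMIs in both hyperplasia libraries and 39 and 29 in the tumors. It stayed rare there, at 0.380 and 0.330 CPM. Myocd passed the filter on low counts only through the tumors, so its place among the 5 is no separate support. Of 16 adhesion genes 9 were higher, among them the tensin Tns3 (2.68, SE 0.22) and the integrin Itga1 (2.36, SE 0.30), and 1 was lower, the integrin Itga8 (-2.56, SE 0.28). Of 18 actin dynamics genes 7 were higher and 2 lower, and of 13 tested other smooth muscle genes 4 and 2. Kcnmb1, 1 of these 4, also passed the filter on low counts only through the tumors. Gsn, gelsolin, which severs and caps filaments, fell from 11734 and 13832 CPM in hyperplasia to 2369 and 651 in tumor (-3.36, SE 0.59, adjusted p = 0.0139).

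In pericytes, where 18.6% of all genes were higher than in fibroblasts and 30.2% lower, 14 of 15 other smooth muscle genes were higher and 0 lower, led by Casq2 (9.47, SE 0.34) and Des (7.19, SE 0.24). Among the regulators 10 of 20 were higher and 3 lower, with Myocd at 7.38 (SE 0.35) and Ppp1r14a, an inhibitor of myosin phosphatase, at 6.71 (SE 0.25). Adhesion genes gave 10 higher and 5 lower of 16. Actin dynamics genes gave 4 higher and 6 lower of 18, with Gsn at -3.68 (SE 0.20). In lobular-type against progenitor-type cells the lists gave 6 higher and 8 lower of 19 regulators, 4 and 1 of 10 other smooth muscle genes, 6 and 4 of 16 adhesion genes, and 3 and 10 of 18 actin dynamics genes, against 25% of all genes in each direction. Under MPA+E, Mrtfb (-0.61, SE 0.09), a cofactor of serum response factor, and the adhesion genes Itga11 (-1.36, SE 0.22) and Tns1 (-0.72, SE 0.09) fell in fibroblasts. These were 1 of 20 regulators and 2 of 16 adhesion genes, and 0 genes of these 2 lists were higher (edgeR quasi-likelihood test; 5 and 3 genes had an unadjusted p under 0.05), against 1.64% of all genes lower and 2.69% higher. Against normal tissue, hyperplasia gave 3 higher and 2 lower regulators, 1 and 2 other smooth muscle genes, 2 and 1 adhesion genes, and 2 and 1 actin dynamics genes, and tumor gave 3 and 2, 1 and 3, 6 and 1, and 5 and 2 in the same order. The shares of all genes were 7.7% higher and 6.29% lower for hyperplasia and 12.7% and 10.1% for tumor.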

How the data were processed

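The authors deposited filtered Cell Ranger 6.1.2 matrices of raw UMI counts per gene and barcode, made against mm10 per the labels, without normalization; a 3′ count reads mostly the end of a transcript and says nothing of isoforms. All 13 libraries were used, no author annotation was used here, and the 33 members and all gene lists were chosen with earlier results of these data known. Of 32285 identifiers 32158 were found in GENCODE M21 (GRCm38).

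Counts were summed per gate and library, since cells are not replicates. Libraries of 1 group differed by more than counting noise, and p-values measure only the spread between these libraries. The hormone, pericyte, state and Lrrc15 comparisons used edgeR 4.0.16 (quasi-likelihood test, TMM, filterByExpr), and the tumor comparisons used limma 3.58.1 (voom) over puberty, adult, hyperplasia and tumor in 1 fit, with Benjamini-Hochberg adjustment over all genes tested and a threshold of 0.05, two-sided. State cells had at least 3 UMIs of their state's markers and at least 2 times those of each other state. Named genes were Acta2, Tagln, Myh11, Cnn1, Myl9, Tpm2, Tpm1 and Actb, up to 6 called members per direction and comparison by size of change, and up to 4 genes of each other list; the rest are given to account for all members. Alternatives were DESeq2 1.42.0 and its size factors, no filter on low counts, other gates, a limit of 5% mitochondrial UMIs, removal of likely doublets by Scrublet score (scanpy 1.11.5, at 0.8% per 1000 barcodes; Scrublet's own threshold marked too few and the main sums keep all), and leaving out each library. A marker of the stricter gate is not reported here. The scripts were tested on simulated data. Hyperplasia and tumor of 1 number share a mouse, and their deviations from the group means correlated at 0.0954 over 16001 genes. Intervals on CPM, ratios and shares are exact 95% Poisson or binomial intervals and cover counting error only.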

Additional observations from a re-analysis of the deposited data

Results flagged for a closer look

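In 8 members the log2 change under MPA+E differed between pericytes and fibroblasts in the test of the difference itself (edgeR interaction, adjusted p under 0.05, 2 libraries per arm). The change in pericytes minus that in fibroblasts was -0.96 for Lmod1, -0.95 for Csrp1, -0.95 for Tpm2, -0.95 for Mylk, -0.93 for Palld, -0.81 for Tagln, -0.77 for Myh11 and -0.76 for Acta2. The adjusted p was lowest for Tpm2 (0.000457) and highest for Myh11 (0.0138). Over the fits that left out 1 library, the value ran from -1.33 to -0.19 for Acta2, -1.39 to -0.15 for Myh11, -1.24 to -0.39 for Tagln, -1.32 to -0.58 for Mylk and -1.83 to 0.10 for Lmod1. Without placebo 1 the call stayed for Palld alone, and without MPA+E 1 all 8 stayed. With the stricter gate on the fibroblast side, an alternative chosen after the data were seen, Tagln (-0.46) and Myh11 (-0.51) did not pass. In the pericyte gate the markers Rgs5, Abcc9, Kcnj8 and Higd1b were higher in both MPA+E libraries than in both placebo libraries, with Abcc9 at 366 and 143 against 87.4 and 31.6 CPM, and Notch3 and Mcam were lower; the part of such a shift in these values was not tested. Groups of 2 libraries are too small for a test of single outlying samples, so none was run.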

How the results depend on the processing

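Each stage is 1 library and each arm 2, which limits every call. The calls of members kept their direction under the other settings run, apart from Lmod1 in the comparison of responses, which ran from -1.83 to 0.10 and was 0.10 without MPA+E 2. For MPA+E in fibroblasts, DESeq2 called 2 members (1 in the reported fit) and 1358 genes (678), and with the replicate block 9 members and 2451 genes passed. The labels do not say whether the replicate numbers mark a shared litter, batch or day. Same-numbered libraries deviated together at 0.396 over 2 pairs. In the paired fit of tumor and hyperplasia, the replicate block gave 25 members and 4837 genes (23 and 4777). Hyperplasia against normal called 14 members and 4017 genes by DESeq2 (8 and 2280), 4 members with the stricter gate, 3 with at least 100 fibroblast UMIs per 10000, and 5 members and 695 genes with placebo added to normal tissue. The genes called were 93 for the Lrrc15 gate of at least 2 UMIs (45) and 186 for the comparison of responses with at least 10 Rgs5 UMIs (377). Thinned to 3000 UMIs, the share of fibroblasts with an Acta2 UMI was 1.24% in the adult, 8.33% in pregnancy, 17.5% in tumor 1 and 43.2% in tumor 2 (0.849%, 6.54%, 14.5% and 37.2% at 2000). The cause of these shifts was not tested.

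Leaving out 1 library at a time gave 0 to 1 members and 22 to 900 genes for MPA+E, 5 to 29 and 242 to 7120 for tumor against hyperplasia, 0 to 16 and 1 to 4810 for hyperplasia against normal, 8 to 21 and 910 to 5479 for tumor against normal, 0 members and 0 to 37 genes for the Lrrc15 gate, and 1 to 9 and 153 to 340 for the comparison of responses. The lone sample left in an arm is then assumed to vary like the other groups. For pericytes the range was 26 to 27 members and for the states 21 to 23. Of 207 results for called members in tumor against hyperplasia under the other settings, 201 kept their call and 6 lost it, and 0 turned direction.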

Other observations

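Gsn, gelsolin, also differed between stages of the gland. In wild-type fibroblasts it was at 11447 CPM in puberty, 15905 in adults, 12096 at pregnancy, 11845 at lactation and 5814 at involution, with 1 library each and no test. With placebo it was at 11654 and 11311 CPM and with MPA+E at 9329 and 7599, without overlap but not past the test. Fhl2 was at 9.52 and 10.7 CPM with placebo against 16.1 and 12.6 with MPA+E, and it was 1 of the genes with more in lobular-type than progenitor-type cells (log2 fold change 2.62, SE 0.16, edgeR adjusted p = 1.20e-07).

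Endothelial barcodes of the wild-type libraries, 292 in all, had Tagln at 199.7 CPM and Acta2 at 82.4 CPM. Wild-type fibroblasts had 30.1 and 41.2 CPM. Barcodes of the basal gate, 775 in the wild-type libraries, had Acta2 at 12062 CPM and Tagln at 5226 CPM. These sums were not compared by a test.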
